A study of Mus musculus with 12 samples.

Results

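The transcription factors that specify and maintain rod and cone photoreceptors were followed through excitotoxic injury of the adult mouse retina. The 9 genes are Crx, Nrl, Nr2e3, Otx2, Rorb, Thrb, Neurod1, Mef2d and Esrrb, each found by an exact match to its symbol among the 55487 genes of the table. All 9 were among the 16471 genes tested, those with a group mean above 1 FPKM (a read abundance scaled to transcript length and to sequencing depth) in at least 1 of 6 groups. The rule that picks them is their name, and the match uses no measured value. The members and the gene lists used below were, however, chosen with earlier results of these data known.

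Whole mouse retinas gave 12 poly(A) RNA-seq libraries, 2 for each of 6 groups. Wild-type C57BL/6J mice (WT), wild-type mice given the AAV2.7m8 vector carrying a short hairpin RNA against Pax6 (shPax6) and Jnk3-/- mice (JNK3 KO) each received an intravitreal injection of 1 µL of PBS or of 40 mM NMDA (40 nmol), and retinas were collected 24 h later. NMDA is a glutamate receptor agonist that kills inner retinal neurons, mainly retinal ganglion cells (RGCs). The shPax6 groups received 2 µL of vector, delivered at about 2 months of age by the paper's text, from which its scheme differs. No separate age is stated for the WT and JNK3 KO RNA-seq mice. WT and JNK3 KO eyes received no vector, so shPax6 eyes had an additional injection. The JNK3 KO is a germline deletion present in every cell. Retinas given the shScramble control vector were not analysed here, so the effect of the vector cannot be told apart from that of the knockdown. Each library pooled more than 3 retinas, and the labels do not say that the 2 libraries of a group came from separate animals, so every p-value measures the spread between these libraries, which may be technical.

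Photoreceptor identity is built in layers. OTX2 commits progenitors to the photoreceptor and bipolar fates and switches on CRX, the homeodomain factor that drives most rod and cone genes. NRL, a basic leucine zipper factor, directs precursors to the rod fate and activates the orphan nuclear receptor NR2E3, which represses cone genes in rods, while RORB acts upstream of NRL. The thyroid hormone receptor THRB sets the medium-wavelength cone opsin program. NEUROD1 is a basic helix-loop-helix factor needed for photoreceptor survival and cone opsin choice, MEF2D cooperates with CRX at photoreceptor enhancers, and ESRRB supports rod survival and energy metabolism. Several of these genes are not restricted to photoreceptors: Otx2 is also used by bipolar cells and Rorb by amacrine and horizontal cells. In whole retina, fewer cells of a type and less RNA per cell cannot be told apart.

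Start sites matter for what follows, since several of these genes have more than 1, and the coding starts that distinguish their proteins are shown here from GENCODE M21 on GRCm38. Crx-201, the transcript with the highest level of Crx, starts coding in exon 2 at chr7:15871184-15871243 (minus strand), whereas Crx-204 starts coding in its own first exon at chr7:15872274-15872312 (minus strand). Rorb-201 starts at chr19:19001007-19001046 and Rorb-203 lies upstream at chr19:19110552-19110558 (both minus strand). Thrb-202 starts at chr14:17981877-17981936 and Thrb-201 at chr14:17925638-17925659 (both plus strand). Capitals mark the start codon, and each run ends with its coding exon or after 60 bases.
Crx-201: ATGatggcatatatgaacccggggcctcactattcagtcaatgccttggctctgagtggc
Crx-204: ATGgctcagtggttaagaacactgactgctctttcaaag
Rorb-201: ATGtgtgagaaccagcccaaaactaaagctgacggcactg
Rorb-203: ATGcgag
Thrb-202: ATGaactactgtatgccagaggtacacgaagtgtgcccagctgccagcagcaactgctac
Thrb-201: ATGactcctaacagtatgacag
These pairs differ at the N terminus and share most exonic bases: 96.0% of Crx-204 lies in Crx-201, 93.1% of Rorb-203 in Rorb-201 and 88.2% of Thrb-201 in Thrb-202. Crx-201 encodes 299 codons and Crx-204 323, Rorb-201 470 and Rorb-203 459, and Thrb-202 475 and Thrb-201 461. Rorb-201 and Thrb-202 correspond to the RORβ2 and TRβ2 forms known from photoreceptors.

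The WT NMDA libraries have a feature that touches every result on NMDA in WT. Summed FPKM were 805627 and 820180 in the WT NMDA libraries and 541210 to 576922 in the other 10. The WT response also followed spliced length across 16443 genes (Spearman correlation -0.56, against -0.17 in shPax6 and 0.23 in JNK3 KO). Its median log2 difference was 0.62 for genes under 2000 bases, -0.32 from 2000 to 4000 bases and -1.17 above 4000 bases. In WT NMDA, 1527 transcripts were listed at 0 in both libraries while averaging over 1 FPKM in each of the other 5 groups, against 21 to 186 for the other groups. The cause was not tested. Responses of the 9 factors and of the rod, cone and regulator lists in WT are therefore also given under other scalings (TPM, quantile normalization and correction for length). Values of the other genes, markers and transcripts in WT are as FPKM only. In the 2 genes targeted, Pax6 was 173 and 177 FPKM in WT PBS and 94.6 and 92.8 in shPax6 PBS, and Mapk10, which encodes JNK3, was 42.8 and 50.7 FPKM in WT PBS and 9.47 and 8.75 in JNK3 KO PBS. After NMDA, mean Pax6 was 54.6 FPKM in WT and 63.1 FPKM in shPax6. Mean Mapk10 after NMDA was 7.49 FPKM in WT and 10.2 FPKM in JNK3 KO. As FPKM, neither targeted RNA was therefore higher in WT once NMDA was given.

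In WT retinas given PBS, the 9 factors spanned a wide range of levels per length. Nrl was highest at 677 and 681 FPKM, followed by Crx at 300.1 and 308 FPKM and Nr2e3 at 192 and 189.7 FPKM. Neurod1 (153 and 154 FPKM) and Mef2d (153 and 146 FPKM) overlapped, so their order was not resolved. Otx2 (108 and 109 FPKM) and Esrrb (86.8 and 84.5 FPKM) came next, and the 2 nuclear receptors Rorb (20.8 and 19.4 FPKM) and Thrb (14.9 and 13.8 FPKM) were lowest. Every other neighbour in this order was separated in both libraries. The order was kept in JNK3 KO PBS. In WT NMDA Mef2d stood above Neurod1, in JNK3 KO NMDA Neurod1 above Nr2e3, and in both shPax6 groups Thrb above Rorb. In shPax6 NMDA Nr2e3 (436 and 447 FPKM) stood above Crx (376 and 392 FPKM). Across all 12 libraries Thrb varied most, 6.11-fold from lowest to highest, and Esrrb least, 1.69-fold.

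**Figure D1:**
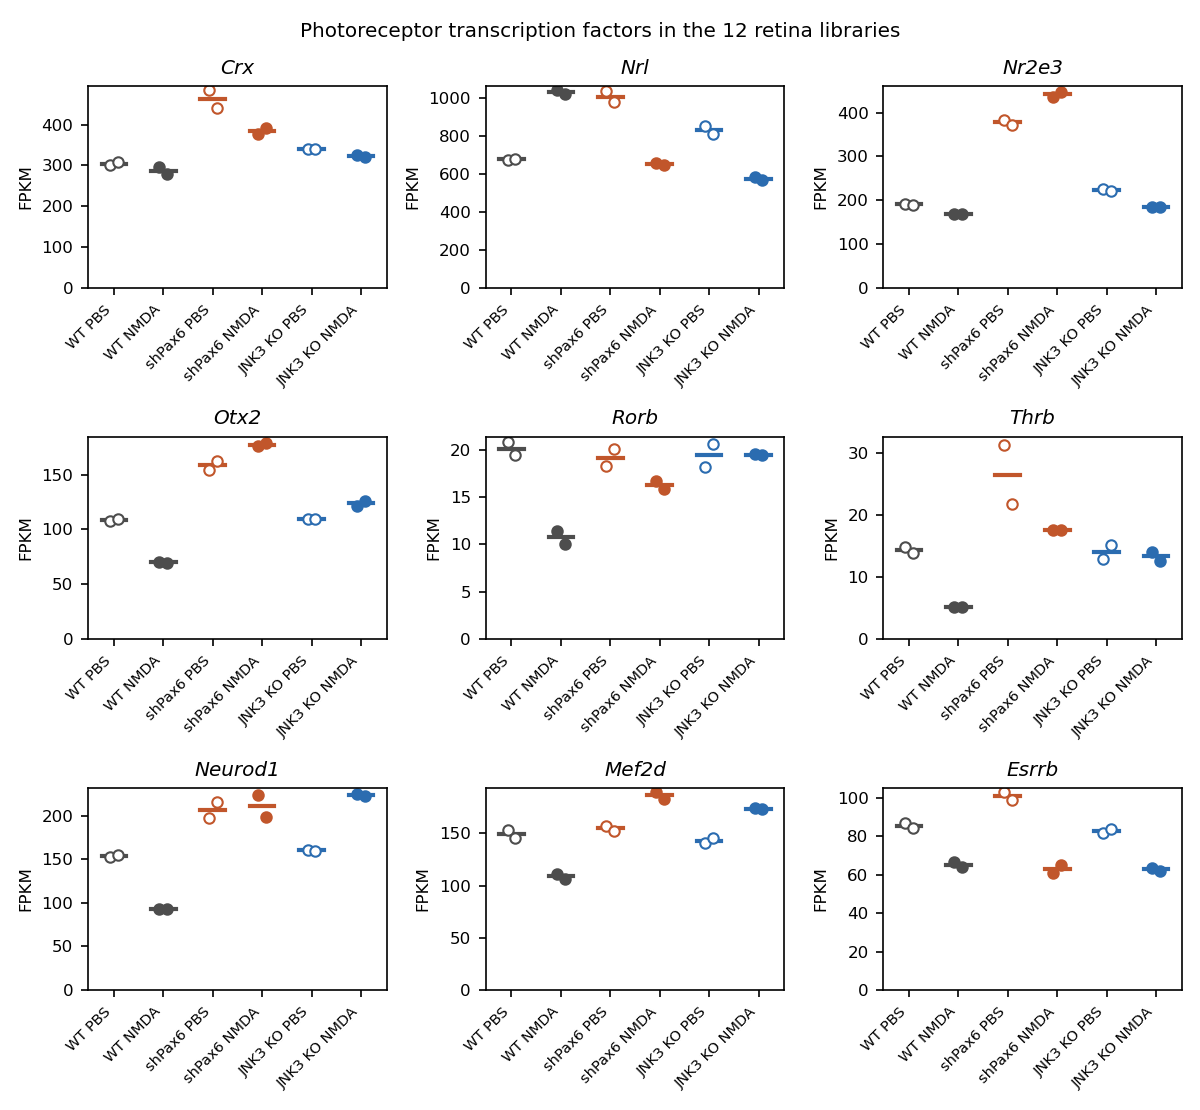
FPKM of the 9 genes in each library by group (open points, PBS; filled points, NMDA; bar, mean of the 2 libraries; grey, WT; orange, shPax6; blue, JNK3 KO). Crx, Nr2e3, Otx2, Thrb and Neurod1 stand above WT PBS in both shPax6 groups, and all genes but Nrl and Esrrb are lowest in WT NMDA.

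The first question was how the factors differ before injury. In shPax6 against WT under PBS, 7 of the 9 were higher and none was lower at an adjusted p under 0.05 (limma, Benjamini-Hochberg over all 16471 genes), where 5.36% of all genes tested were called up and 11.2% down. The median log2 difference of the 9 was 0.54, beside -0.06 over all genes tested. Over all genes 883 were higher and 1841 lower, against 1134 and 1535 after quantile normalization and 1270 and 1451 after length correction. All 7 rises kept their call as TPM, after quantile normalization and after length correction.

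Nr2e3, the repressor of cone genes in rods, rose most. It was 192 and 189.7 FPKM in WT PBS and 383 and 373 FPKM in shPax6 PBS, with no overlap, a log2 difference of 0.98 ± 0.04 (SE, n = 2 libraries per group, limma adjusted p = 1.6e-06). Under the 4 scalings this difference stayed between 0.96 and 1.05.

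The pair at the top of the rod program rose by a smaller amount. Crx went from 300.1 and 308 FPKM to 484 and 439 FPKM (log2 difference 0.60 ± 0.05, limma adjusted p = 0.000153). Its coding transcript Crx-201 rose by less, from 292 and 299 FPKM to 391 and 417 FPKM (0.45 ± 0.04, limma adjusted p = 0.00141 over transcripts). Nrl went from 677 and 681 FPKM to 1036 and 977 FPKM (0.57 ± 0.04, limma adjusted p = 5.38e-05). Both shPax6 libraries exceeded both WT libraries for each gene.

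Otx2, the activator of Crx, was 108 and 109 FPKM in WT PBS and 155 and 163 FPKM in shPax6 PBS (0.54 ± 0.05, limma adjusted p = 0.000113). Neurod1 rose from 153 and 154 FPKM to 197 and 215 FPKM (0.42 ± 0.06, limma adjusted p = 0.00231). Thrb rose from 14.9 and 13.8 FPKM to 31.2 and 21.7 FPKM (0.85 ± 0.16, limma adjusted p = 0.00812), and its 2 shPax6 libraries lay far apart. Its transcript Thrb-202, the TRβ2 form, was not called (0.66, limma adjusted p = 0.141 over transcripts). The incomplete transcript Thrb-207 was 9.34 and 0.69 FPKM in these shPax6 libraries. Esrrb rose least, from 86.8 and 84.5 FPKM to 103 and 99.2 FPKM (0.24 ± 0.06, limma adjusted p = 0.0188). For Rorb the log2 difference was -0.07 ± 0.10 and for Mef2d 0.05 ± 0.05, and neither passed (limma adjusted p = 0.722 and 0.539). Without WT PBS library 2 the rise of Thrb (0.80, limma adjusted p = 0.0704) did not pass, and that of Esrrb did not pass without WT PBS library 1, WT PBS library 2 or shPax6 PBS library 1 (0.26, 0.22 and 0.21). When the spread was taken from the 4 libraries compared alone, 4 of the 7 rises passed, those of Crx, Nrl, Nr2e3 and Otx2 (limma adjusted p = 0.0466, 0.042, 0.0208 and 0.0312).

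Genes of rods and cones were higher as well. Of 32 rod genes, 31 were higher in shPax6 PBS and none was lower (median log2 difference 0.48), and 26 to 31 were higher and at most 1 lower under the other 3 scalings. Sag, rod arrestin, rose by 1.05 ± 0.04 on the log2 scale, from 2457 and 2574 FPKM to 5328 and 5127 FPKM, and Kcnv2, a photoreceptor potassium channel subunit, by 1.08 ± 0.07, from 61.9 and 58.8 FPKM to 128 and 127 FPKM. Of 12 cone genes, 9 were higher and 1 was lower (median 0.70). Opn1sw, the short-wavelength cone opsin, was 111 and 117 FPKM in WT PBS and 383 and 334 FPKM in shPax6 PBS (1.65 ± 0.12, limma adjusted p = 4.24e-05). Opn1mw, the medium-wavelength opsin, was 108 and 109 FPKM against 149 and 154 FPKM. Of 27 further regulators of photoreceptors, 8 were higher and 3 lower (median 0.09), among them Samd7, a Polycomb-associated repressor of photoreceptors, which rose by 0.63 ± 0.06, and Vax2, a homeodomain factor of dorsoventral patterning, which rose by 0.62 ± 0.08.

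Markers of other retinal cells moved in the same comparison, where 5.36% of all genes were called up and 11.2% down. Of 15 RGC markers, 10 were lower and none higher (median -1.53), and their summed level was 777 and 804 FPKM in WT PBS against 263 and 260.2 FPKM in shPax6 PBS, with no marker listed at 0. Rbpms2 and Nefl led them (log2 differences -2.56 and -2.09). Lower calls also covered 4 of 12 amacrine, 3 of 5 horizontal and 5 of 17 bipolar markers, with 1 bipolar marker higher. Of the 12 Müller glia markers 4 were higher and 3 lower, of the 12 myeloid markers 2 were higher and 6 lower, of the 6 pineal and lens markers none was higher and 2 were lower, and none of 8 retinal pigment epithelium (RPE) markers was called. The part of these shifts in the rise of the photoreceptor factors was not tested.

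Between JNK3 KO and WT under PBS the factors lay closer together. Nrl (851 and 809 FPKM against 677 and 681) and Nr2e3 (226 and 221 FPKM against 192 and 189.7) were higher in JNK3 KO, by 0.29 ± 0.04 and 0.23 ± 0.04 on the log2 scale (limma adjusted p = 0.0181 and 0.0278), and none was lower, where 1.1% of all genes were called up and 0.407% down. Over all genes 182 were higher and 67 lower, against 94 and 72 as TPM and 43 and 91 after quantile normalization. The other 7 had log2 differences between -0.06 and 0.16. Neither call was stable: after quantile normalization the values were 0.02 and 0.10, and neither gene passed with the spread of the 4 libraries alone or without WT PBS library 1, WT PBS library 2 or JNK3 KO PBS library 1. This comparison followed spliced length too (Spearman correlation -0.36 across genes). Of the 32 rod genes, 17 were higher and none lower (median 0.25), but 9 were higher as TPM, 13 after length correction and 1 after quantile normalization. They were led by Cabp4 (0.49 ± 0.06) and Sag (0.43 ± 0.04). Of the 12 cone genes 1 was higher, Gngt2 (0.42 ± 0.07), and of the 15 RGC markers none was called. The WT PBS libraries served as reference in both genotype comparisons.

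**Figure D2:**
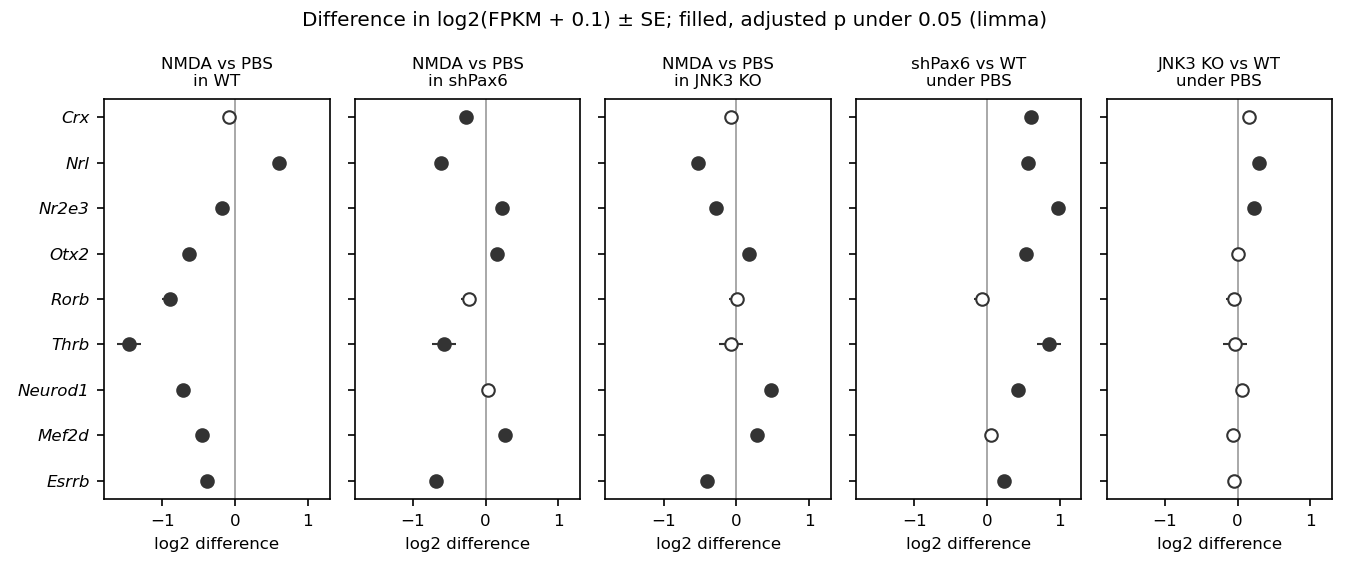
Difference in log2(FPKM + 0.1) with its SE (bars) for each gene in 5 comparisons; filled points passed an adjusted p of 0.05. In shPax6 against WT under PBS the called genes all lie to the right of 0, whereas Nrl lies to the right after NMDA in WT and to the left after NMDA in shPax6 and JNK3 KO.

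The second question was how the factors respond to NMDA in each genotype. In WT, 7 of the 9 were lower and Nrl was higher after NMDA, where 33.8% of all genes were called down and 26.0% up, so calls in WT were common among all genes. As TPM, 8270 of all genes were called down and 2247 up, in place of 5569 and 4286 as FPKM, and the median log2 difference of all genes moved from -0.09 to -0.66. For 4 of the factors, Nr2e3, Otx2, Thrb and Neurod1, the fall passed under all 4 scalings.

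Otx2 was 108 and 109 FPKM after PBS and 70.4 and 69.8 FPKM after NMDA in WT (-0.63 ± 0.05, limma adjusted p = 3.5e-06; -1.21 to -0.63 under the 4 scalings). Neurod1 went from 153 and 154 FPKM to 93.5 and 92.7 FPKM (-0.72 ± 0.06, limma adjusted p = 1.09e-05; -1.32 to -0.43). Thrb showed the largest fall as FPKM and as TPM, though not after quantile normalization or length correction, from 14.9 and 13.8 FPKM to 5.11 and 5.17 FPKM (-1.46 ± 0.16, limma adjusted p = 5.07e-05; -2.04 to -0.56). In each of the 3 genes both NMDA libraries lay below both PBS libraries. Nr2e3 fell by 0.17 ± 0.04 on the log2 scale as FPKM, from 192 and 189.7 to 169.6 and 169.0 FPKM (limma adjusted p = 0.00343; -0.88 to -0.17). These falls are of gene values, and the main transcripts did not all follow. Otx2-201 rose (0.52, limma adjusted p = 0.00547 over transcripts) and Nr2e3-201 was not called (-0.17, limma adjusted p = 0.0652). Thrb-202 and Neurod1-201 fell (-0.90 and -0.72).

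The direction of the other 5 in WT depended on the scaling. Nrl rose as FPKM, from 677 and 681 to 1041 and 1020 FPKM (0.60 ± 0.04, limma adjusted p = 2.48e-06), was 0.03 as TPM (limma adjusted p = 0.575) and fell by 0.81 after quantile normalization. Rorb (20.8 and 19.4 to 11.4 and 10.1 FPKM), Mef2d (153 and 146 to 111 and 106 FPKM) and Esrrb (86.8 and 84.5 to 66.6 and 64.1 FPKM) fell by 0.90, 0.46 and 0.39 on the log2 scale as FPKM but rose by 0.59, 0.35 and 0.46 after length correction. Crx was 300.1 and 308 FPKM after PBS and 297 and 278 FPKM after NMDA, a log2 difference of -0.08 ± 0.05 that did not pass (limma adjusted p = 0.234), and lay between -0.98 and 0.25 under the 4 scalings. These 5 genes have no settled direction in WT.

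**Figure D3:**
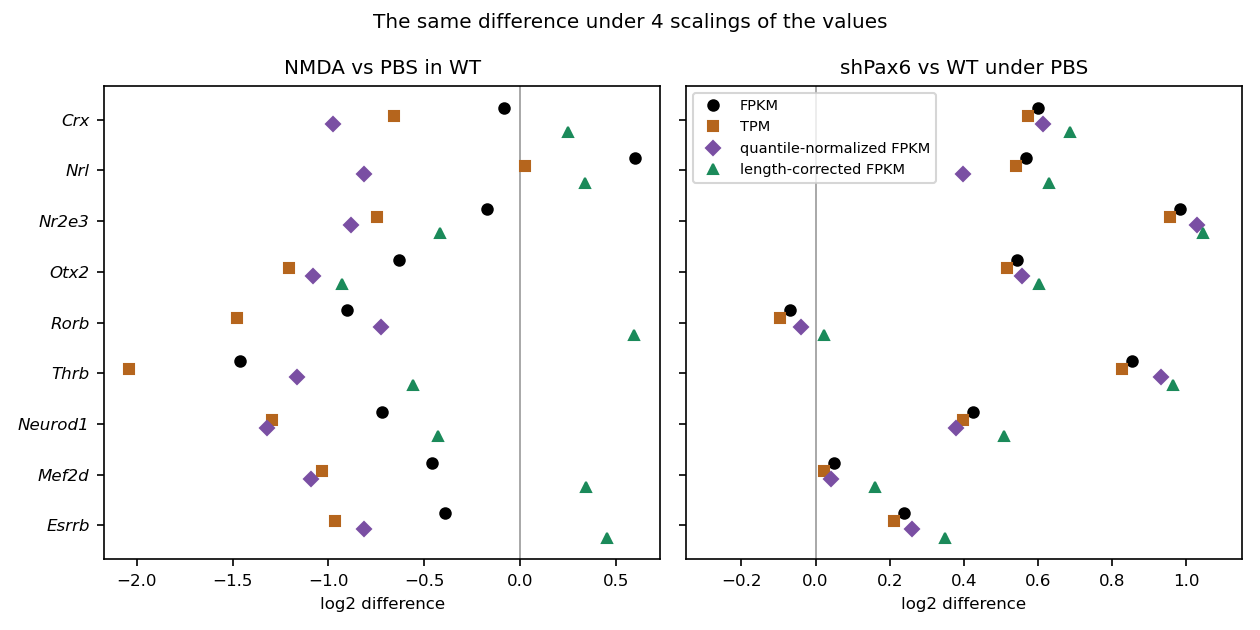
Log2 difference of each gene for NMDA against PBS in WT (left) and shPax6 against WT under PBS (right) from 4 scalings of the same values (circle, FPKM; square, TPM; diamond, quantile-normalized FPKM; triangle, length-corrected FPKM). On the left Nrl, Crx, Rorb, Mef2d and Esrrb fall on both sides of 0, and on the right the 7 called genes stay above 0.

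In shPax6 retinas, 4 of the 9 were lower after NMDA and 3 higher, where 11.0% of all genes were called down and 19.1% up. Over all genes 3151 were higher and 1816 lower, against 2158 and 2742 after quantile normalization and 2258 and 2502 after length correction. Nrl fell from 1036 and 977 FPKM to 659 and 650.4 FPKM (-0.62 ± 0.04, limma adjusted p = 1.05e-05), and Esrrb from 103 and 99.2 FPKM to 60.9 and 65.0 FPKM (-0.68 ± 0.06, limma adjusted p = 3.09e-05). Both passed under all 4 scalings and with the spread of the 4 libraries alone (limma adjusted p = 0.0342 and 0.0319). Crx fell from 484 and 439 FPKM to 376 and 392 FPKM (-0.27 ± 0.05, limma adjusted p = 0.00621), still above both WT PBS libraries. With the spread of the 4 libraries alone this fall did not pass (limma adjusted p = 0.137).

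Thrb fell by 0.57 ± 0.16 on the log2 scale (31.2 and 21.7 to 17.5 and 17.6 FPKM, limma adjusted p = 0.029). Without shPax6 PBS library 1 its value was -0.31 and did not pass, and it did not pass without either NMDA library (-0.56 and -0.57) or with the spread of the 4 libraries alone (limma adjusted p = 0.219). Mef2d rose from 157 and 152 FPKM to 189 and 183 FPKM (0.27 ± 0.05, limma adjusted p = 0.00296), Nr2e3 from 383 and 373 FPKM to 436 and 447 FPKM (0.23 ± 0.04, limma adjusted p = 0.00218) and Otx2 from 155 and 163 FPKM to 176 and 179 FPKM (0.16 ± 0.05, limma adjusted p = 0.0296). These rises depended on the setting: after quantile normalization the 3 values were 0.13, 0.00 and 0.05, none passing, and none passed with the spread of the 4 libraries alone. That of Otx2 also did not pass without shPax6 PBS library 1 (0.12). Neurod1 (0.03 ± 0.06) and Rorb (-0.23 ± 0.10) did not pass.

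In JNK3 KO retinas, 3 were lower and 3 higher after NMDA, where 6.1% of all genes were called down and 4.33% up. Nrl fell from 851 and 809 FPKM to 583 and 568 FPKM (-0.53 ± 0.04, limma adjusted p = 0.000143), Esrrb from 82.0 and 83.8 FPKM to 63.6 and 62.0 FPKM (-0.40 ± 0.06, limma adjusted p = 0.00277) and Nr2e3 from 226 and 221 FPKM to 184.2 and 183.7 FPKM (-0.28 ± 0.04, limma adjusted p = 0.00251). Neurod1 rose from 161 and 159.8 FPKM to 225 and 222 FPKM (0.48 ± 0.06, limma adjusted p = 0.00218), Mef2d from 140.5 and 146 FPKM to 174 and 173 FPKM (0.28 ± 0.05, limma adjusted p = 0.00786) and Otx2 from 109.7 and 109 FPKM to 121 and 126 FPKM (0.18 ± 0.05, limma adjusted p = 0.045). All 6 calls were made under each of the 4 scalings. The Otx2 rise did not pass without any 1 of the 4 libraries compared (0.15 to 0.21), and that of Mef2d without JNK3 KO PBS library 1 or either NMDA library (0.25, 0.27 and 0.28). Crx (-0.07 ± 0.05), Rorb (0.01 ± 0.10) and Thrb (-0.07 ± 0.16) did not pass.

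The difference between responses was tested directly. For WT minus shPax6, 6 of the 9 differences were negative and 2 positive at an adjusted p under 0.05, where 31.4% of all genes were negative and 18.3% positive. As TPM 7771 of all genes were negative and 1516 positive, in place of 5172 and 3007, and after length correction 2768 and 3186. Of these, Otx2 (-0.79 ± 0.07), Neurod1 (-0.75 ± 0.09) and Nr2e3 (-0.40 ± 0.05) passed with the same sign under all 4 scalings (limma adjusted p = 2.21e-05, 0.000162 and 0.000333 as FPKM). For WT minus JNK3 KO, 5 were negative and 1 positive, where 27.9% of all genes were negative and 23.5% positive. As TPM these were 6973 and 2105 genes, in place of 4597 and 3875. Neurod1 (-1.20 ± 0.09) and Otx2 (-0.81 ± 0.07) kept sign and call under all 4 scalings (limma adjusted p = 7.14e-06 and 1.16e-05 as FPKM). These scalings act on gene values, and the main Otx2 transcript did not follow the gene. The log2 difference of Otx2-201 after NMDA was 0.52 in WT, 0.15 in shPax6 and 0.12 in JNK3 KO. Responses of transcripts were not compared by a test. Both comparisons share the 4 WT libraries.

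Most rod genes were lower after NMDA in shPax6 and in JNK3 KO. Among all genes, 11.0% were called lower and 19.1% higher in shPax6, 6.1% and 4.33% in JNK3 KO, and 33.8% and 26.0% in WT. In shPax6, 28 of 32 rod genes were lower and 1 higher (median -0.51, beside 0.10 over all genes), with Pde6g (-1.19 ± 0.05) and Guca1b (-1.09 ± 0.05), both of the phototransduction cascade, leading. Of the 12 cone genes 11 were lower and 1 higher (median -1.39). Opn1sw fell from 383 and 334 FPKM to 35.2 and 28.0 FPKM (-3.51 ± 0.12, limma adjusted p = 2.43e-07), and Arr3, cone arrestin, by 2.74 ± 0.10 on the log2 scale. The same 2 shPax6 PBS libraries enter this comparison and the one with WT under PBS, so a high level in them appears in both.

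In JNK3 KO, 22 of 32 rod genes were lower and 3 higher (median -0.30), led by Pdc, phosducin (-0.81 ± 0.05), and Guca1a (-0.64 ± 0.05). Of the 12 cone genes 7 were lower and none higher (median -0.48), with Arr3 at -1.36 ± 0.10 and Opn1mw, 107.6 and 108 FPKM after PBS and 53.2 and 51.0 FPKM after NMDA, at -1.05 ± 0.10. In WT, 19 of 32 rod genes were higher and 11 lower as FPKM (median 0.43), but 11 higher and 17 lower as TPM (median -0.14), 7 higher and 24 lower after quantile normalization (median -0.46) and 25 higher and 6 lower after length correction (median 0.37). Of the 12 cone genes in WT 4 were higher and 5 lower (median -0.01), against 4 and 8 as TPM, 3 and 7 after quantile normalization and 5 and 4 after length correction. As FPKM, Rp1, an axonemal protein of outer segments, fell by 2.08 on the log2 scale, whereas Gngt2, the cone transducin gamma subunit, rose by 1.94. Opn1sw was 61.8 and 52.4 FPKM after NMDA in WT; both lay below the PBS libraries.

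**Figure D4:**
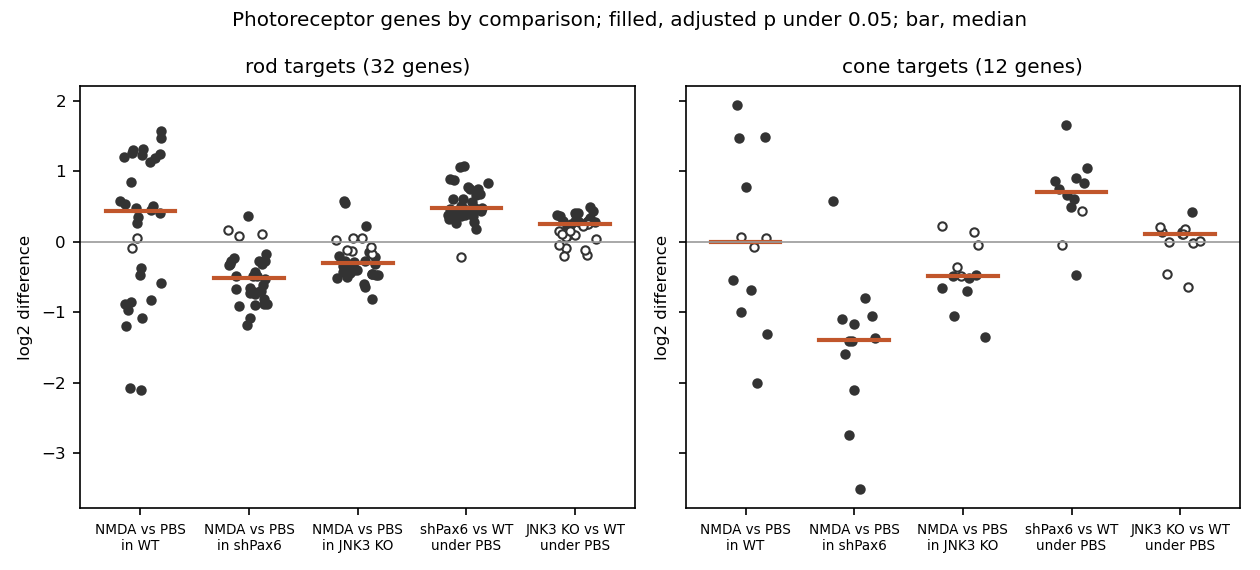
Log2 difference in FPKM of each of 32 rod genes (left) and 12 cone genes (right) in 5 comparisons (filled, adjusted p under 0.05; orange bar, median; horizontal spread of points is arbitrary). Nearly all rod genes lie above 0 in shPax6 against WT under PBS and below 0 after NMDA in shPax6, and in WT they split widely after NMDA.

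Other regulators of photoreceptors gave counts of 4 higher and 18 lower of 27 in WT as FPKM (median -0.69), where 26.0% and 33.8% of all genes were called. The WT counts were 2 and 21 as TPM (median -1.26), 4 and 17 after quantile normalization (median -0.85) and 7 and 11 after length correction (median -0.27). As FPKM they were 3 and 11 in shPax6 (median -0.22) and 4 and 2 in JNK3 KO (median 0.02). Esrrg, a relative of Esrrb, fell from 20.1 and 18.5 FPKM to 2.48 and 3.48 FPKM in WT, and Ppargc1a, a coactivator of estrogen-related receptors, fell by 1.96 ± 0.19 on the log2 scale. Six6 fell by 0.94 ± 0.10 and Neurod2 by 1.78 ± 0.39 in shPax6. Neurod4, a relative of Neurod1, rose in JNK3 KO from 37.6 and 38.8 FPKM to 77.7 and 77.4 FPKM (1.02 ± 0.07, limma adjusted p = 9.59e-05), while Rxrg, a retinoid receptor of cones, fell by 1.22 ± 0.25.

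Markers of other cells after NMDA are given as counts higher and lower in WT, shPax6 and JNK3 KO. The shares of all genes called higher and lower were 26.0% and 33.8%, 19.1% and 11.0%, and 4.33% and 6.1%. Counts are thus not comparable between genotypes without these shares. RGC markers were 1 and 11, 0 and 10, and 0 and 11 of 15, with summed levels of 516 and 533, 119 and 102, and 231.8 and 232 FPKM after NMDA. Amacrine markers were 0 and 9, 0 and 12, and 0 and 4 of 12. Bipolar markers were 4 and 11, 2 and 3, and 3 and 1 of 17, and horizontal markers 1 and 4, 0 and 3, and 1 and 1 of 5. Müller glia markers were 3 and 8, 7 and 3, and 4 and 4 of 12, and myeloid markers 8 and 4, 8 and 0, and 1 and 5 of 12. RPE markers were 2 and 3, 0 and 6, and 0 and 0 of 8, with a sum of 23.7 and 17.9 FPKM in shPax6 NMDA against 78.3 and 73.5 FPKM in shPax6 PBS. Pineal and lens markers were 5 and 0, 2 and 2, and 4 and 0 of 6. The part of these shifts in the responses of the photoreceptor factors was not tested.

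The transcript table separates the starts of these genes. It holds 58 transcripts of the 9 genes, of which 25 made up at least 10% of their gene's summed FPKM in 1 group or more, and 24 of the 25 were tested among 49940. Crx-204 and Nr2e3-202 passed the filter and the 10% limit through WT NMDA alone, so no count of calls over these transcripts is given. Of all transcripts tested, 23.5% were called lower and 11.7% higher after NMDA in WT, 3.63% and 4.71% in shPax6, and 0.775% and 0.537% in JNK3 KO. Transcript values are as FPKM only.

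Crx had a transcript listed in WT NMDA alone. Crx-204 was listed at 116 and 90.5 FPKM in the WT NMDA libraries, 35.9% of Crx, and at 0 in the other 10 libraries. Crx-201 was 292 and 299 FPKM after PBS and 180.2 and 187 FPKM after NMDA in WT (-0.69 ± 0.04, limma adjusted p = 8.07e-06 over transcripts), while the gene as a whole changed little as FPKM. As 96.0% of Crx-204 lies in Crx-201, the division of reads between them is an estimate. The fall of Crx-201 and the level of Crx-204 are thus not separate results. In the other 5 groups Crx-201 made up 87.5% to 98.2% of the gene. Of all transcripts, 340 averaged over 1 FPKM in WT NMDA and were listed at 0 in the other 10 libraries, beside 71 to 440 counted likewise for each of the other groups. The coding start of Crx-204 shown above also shares an exact stretch of 16 bases with transcripts of 399 other genes of 55341, while that of Crx-201 shares one with 2 and that of Rorb-201 with 0.

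Nr2e3 also had a transcript listed almost wholly in WT NMDA. Nr2e3-202, annotated as a retained-intron transcript that starts upstream of Nr2e3-201, was 46.6 and 49.03 FPKM in WT NMDA, 28.2% of the gene, and 0 and 0.41 FPKM in WT PBS, and was listed at 0 in the 8 shPax6 and JNK3 KO libraries. Nr2e3-209, also annotated with a retained intron, was 29.6 and 27.1 FPKM in WT PBS and 0.56 and 0.47 FPKM in WT NMDA. In shPax6 it was 63.0 and 71.0 FPKM after PBS and 97.8 and 90.0 FPKM after NMDA. The coding transcript Nr2e3-201 kept a share of 56.8% to 67.2% in all 6 groups.

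In Nrl, Otx2 and Mef2d the WT NMDA libraries concentrated on 1 transcript. Nrl-203 made up 88.4% of Nrl there and 67.9% to 70.8% elsewhere, and it rose from 457 and 465 FPKM to 915 and 907 FPKM (0.98 ± 0.04, limma adjusted p = 2.06e-06 over transcripts). Nrl-207, an incomplete short transcript, fell from 109.5 and 110.5 FPKM to 25.6 and 26.5 FPKM. Otx2-201 made up 87.5% of Otx2 in WT NMDA and 39.6% to 46.1% elsewhere, and rose from 38.8 and 47.2 FPKM to 60.04 and 62.7 FPKM although the gene fell. Mef2d-201 made up 89.5% there and 40.9% to 52.7% elsewhere, while Mef2d-203 fell from 33.2 and 29.1 FPKM to 2.61 and 2.77 FPKM. Neurod1 has a single transcript, so it could not show such a shift. Esrrb showed none, with Esrrb-203 at 97.0% to 99.2% of the gene in all groups.

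**Figure D5:**
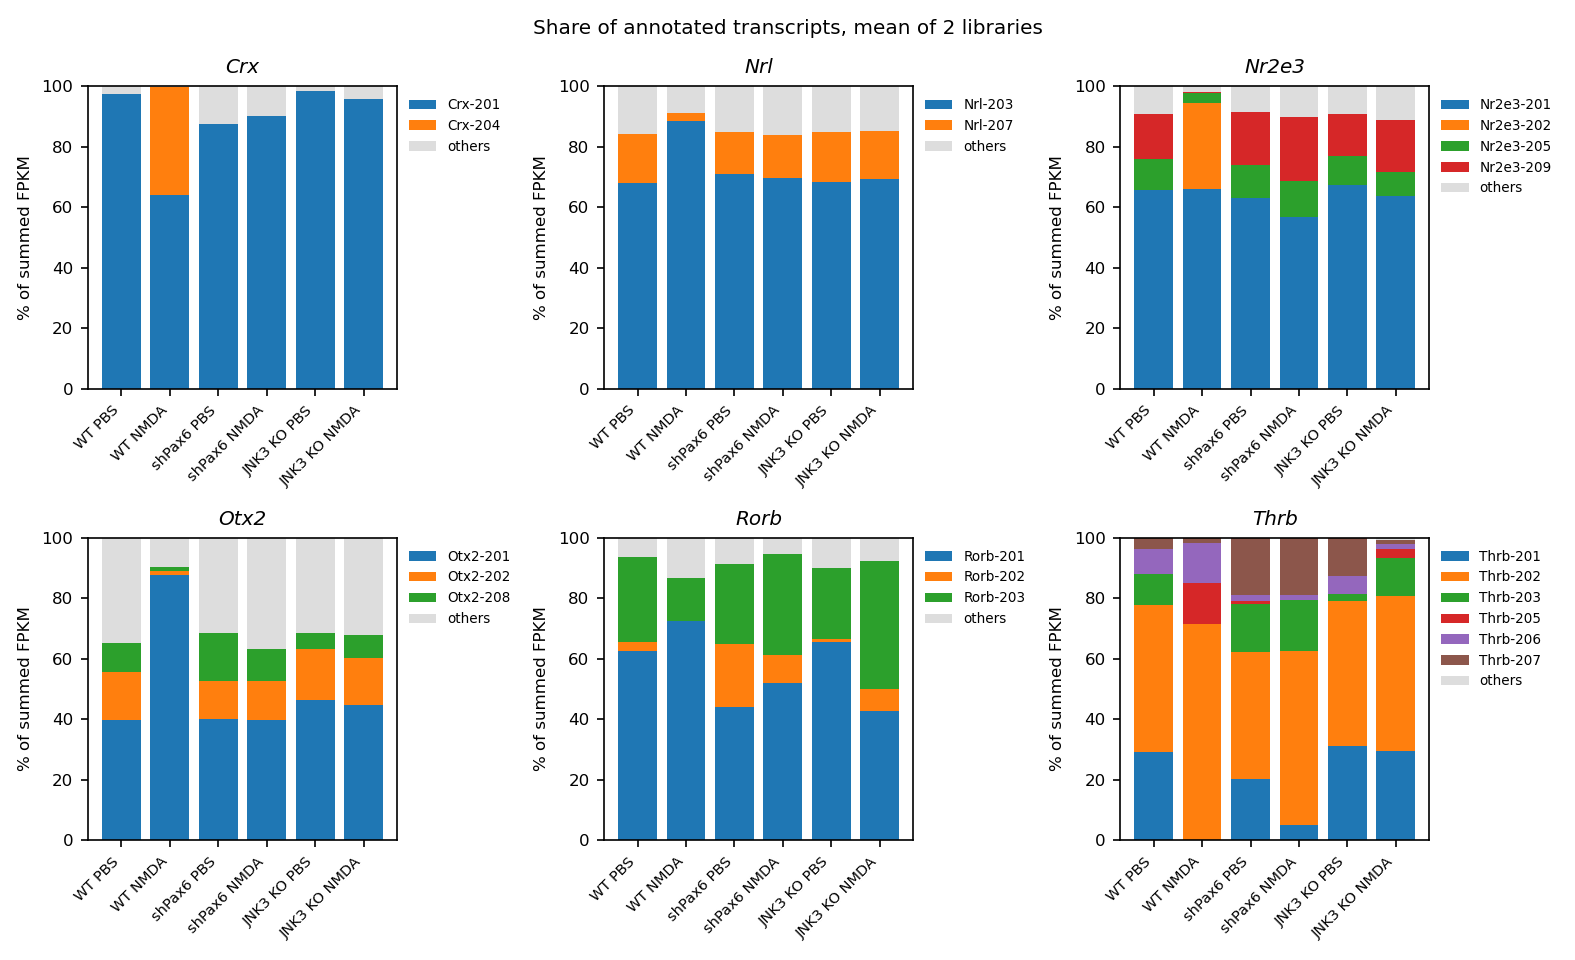
Share of each transcript in the summed FPKM of its gene (percent, mean levels of the 2 libraries of a group) for 6 genes; transcripts under 10% in every group are grouped as others. Crx-204 and Nr2e3-202 reach 35.9% and 28.2% in WT NMDA and at most 0.107% in any other group, and the Nrl-203 and Otx2-201 segments are longest in WT NMDA.

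The 2 nuclear receptors with photoreceptor forms gave lower and noisier values. Thrb-202, the TRβ2 form, was 6.30 and 7.67 FPKM in WT PBS and 3.72 and 3.63 FPKM in WT NMDA (-0.90 ± 0.19, limma adjusted p = 0.00767 over transcripts; -0.76 and adjusted p = 0.0565 without WT PBS library 2), and was called in neither other response (-0.15 in shPax6 and 0.02 in JNK3 KO). Thrb-201 was 5.18 and 3.21 FPKM in WT PBS and listed at 0 in both WT NMDA libraries, and it was 5.26 and 5.44 FPKM in shPax6 PBS against 0 and 1.72 FPKM in shPax6 NMDA. Rorb-201, the RORβ2 form, was 12.2 and 12.9 FPKM in WT PBS and 8.45 and 7.05 FPKM in WT NMDA (-0.69, limma adjusted p = 0.0422), a call that was lost without any 1 of these 4 libraries (-0.82 to -0.56). Rorb-203 was 6.05 and 5.17 FPKM against 1.12 and 1.94 FPKM. In JNK3 KO the share of Rorb-203 was 23.7% after PBS and 42.4% after NMDA, which no call on either transcript accompanied.

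By the root mean square difference of centred log2(FPKM + 0.1) over the 12 libraries, the genes tested that lay near Esrrb included Ppp1r13b and Tmem35a (0.11 and 0.13), and the nearest to Nrl were Faim and Kcnj14 (0.07 and 0.08) and Gnat1, rod transducin (0.09). For Crx they were Osbp2, Klhl18 and Rxra (0.07 to 0.08), for Nr2e3 Smug1, St6galnac2 and 5330413P13Rik (0.16 to 0.19), and for Otx2 Dpysl3, Otud7b and Wdr78 (0.07 to 0.08). For Neurod1 they were Zfp131, Cggbp1 and Fam120a, for Mef2d Smim13 and Golph3l, for Rorb Dcaf7, Hnrnpul2 and Ptpn11, and for Thrb Dixdc1, Atp11a and Vldlr. The median over all genes was 0.55 to 0.86. Among the factors themselves, Otx2 and Neurod1 were nearest to each other (0.19). The 12 values share the feature of the WT NMDA libraries given above.

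Promoter windows of 300 bases (250 before and 50 after the start, RefSeq, GRCm38.p6) covered the start of the main transcript for 8 of the 9 genes; that of Nrl lay elsewhere in the gene. They were searched on both strands for TAATCC, read by CRX and OTX2, TGCTGA, part of the NRL site, AGGTCA, the nuclear receptor half-site, and CAGATG, an E-box of NEUROD1. TAATCC had 2 matches in the Crx window and 1 in that of Otx2, and 7.06% of 32851 windows held it. TGCTGA was found in the windows of Otx2, Neurod1 and Mef2d (19.5% of all windows), and AGGTCA (16.3%) and CAGATG (17.2%) in none of the 8. The bases upstream of Crx-201 and Nr2e3-201 are shown since these genes rose in shPax6, and since a transcript with another start was listed for both in WT NMDA. They run from chr7:15879969-15880205 and chr9:59950118-59950329, both on the minus strand, up to the base before the start, and capitals mark GGATTA, the reverse complement of TAATCC.
Crx: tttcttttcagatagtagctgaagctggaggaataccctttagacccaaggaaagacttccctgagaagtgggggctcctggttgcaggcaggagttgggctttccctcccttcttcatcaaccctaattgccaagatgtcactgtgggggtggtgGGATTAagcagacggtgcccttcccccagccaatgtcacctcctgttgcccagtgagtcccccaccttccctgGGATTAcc
Nr2e3: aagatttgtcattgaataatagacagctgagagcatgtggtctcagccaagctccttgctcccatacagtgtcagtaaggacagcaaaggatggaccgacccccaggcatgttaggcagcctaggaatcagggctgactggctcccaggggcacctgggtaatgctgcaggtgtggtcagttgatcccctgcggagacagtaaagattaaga
None of the 4 motifs lies in the Nr2e3 bases shown, and a match of letters is no evidence of binding.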

How the data were processed

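Poly(A) RNA from 12 libraries of pooled retinas was sequenced as paired 101-base reads. The authors aligned reads to GRCm38.p6 with STAR 2.7.1a, estimated abundance with RSEM 1.3.3, and deposited the resulting FPKM for genes and for transcripts. Their edgeR 3.36.0 comparisons were not used here. Deposited values are RSEM estimates with 2 decimals, so read counts could not be recovered and depth is unknown. Differences were fitted with limma 3.58.1 (R 4.3.3) on log2(FPKM + 0.1), a scale that understates the change of low genes. Kept were features that averaged over 1 FPKM in any of the 6 groups (16471 genes, 49940 transcripts). A single model held all 6 means, leaving 6 residual degrees of freedom, with a trended prior. P-values were two-sided, adjusted by Benjamini-Hochberg over all features tested, and called below 0.05. The fit was tested on simulated data built from the WT PBS means. Those data lacked the length trend of the WT NMDA libraries, so that test cannot speak to calls in WT.

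TPM were FPKM rescaled to a common total. Length correction subtracted, in each library, a lowess trend (span 0.3) of log2 values on spliced length. Other alternatives were quantile normalization, a pseudocount of 1, no filter, the spread of the groups compared alone, a further limit of 1 on the absolute log2 difference, a replicate block and leaving out each library. Annotation came from GENCODE M21, which matched 55141 of 55487 genes. Named besides the 9 factors were the 2 called genes of each list with the largest difference, the cone opsin genes, the targeted genes, the 3 nearest patterns per factor, and transcripts reaching 10% of their gene. Some genes that this rule names are not reported here. The members and lists were chosen with earlier results of these data known.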

Additional observations from a re-analysis of the deposited data

Results flagged for a closer look

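The response to NMDA (log2 difference from PBS in FPKM) differed between WT and another genotype, by the interaction term of the same limma model, in 14 cases. Such calls were common: 31.4% of all genes were negative and 18.3% positive for WT minus shPax6. The shares for WT minus JNK3 KO were 27.9% and 23.5%. For WT minus shPax6 the difference was 1.22 for Nrl, -0.40 for Nr2e3, -0.79 for Otx2, -0.67 for Rorb, -0.90 for Thrb, -0.75 for Neurod1, -0.73 for Mef2d and 0.29 for Esrrb. For WT minus JNK3 KO it was 1.13 for Nrl, -0.81 for Otx2, -0.91 for Rorb, -1.40 for Thrb, -1.20 for Neurod1 and -0.74 for Mef2d. Of these, Nr2e3, Otx2 and Neurod1 against shPax6 and Otx2 and Neurod1 against JNK3 KO were called with the same sign under all 4 scalings. The main Otx2 transcript, Otx2-201, did not follow the gene (0.52 after NMDA in WT, 0.15 in shPax6 and 0.12 in JNK3 KO). The 4 WT libraries are common to both sets, and the part of the length trend of the WT NMDA libraries in the other 9 was not tested.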

How the results depend on the processing

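Values below are log2 differences unless given as counts of the 9 genes, and where they changed the cause was not tested. A pseudocount of 1 changed no sign or call among the 63 gene values, and removing the filter, the replicate block and the spread of the groups alone turned no sign. Signs turned as TPM for Neurod1 after NMDA in shPax6 (-0.0192), for Otx2 (-0.056) and Neurod1 (-0.0003) in JNK3 KO against WT, for Crx (-0.34) and Esrrb (-0.23) in WT minus shPax6, and for Nr2e3 (-0.49) and Esrrb (-0.58) in WT minus JNK3 KO.

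Length correction turned Crx (0.25), Rorb (0.59), Mef2d (0.35) and Esrrb (0.46) after NMDA in WT, Otx2 (-0.0325) and Neurod1 (-0.0863) in shPax6, and Rorb (-0.25) in JNK3 KO. It also turned Rorb (0.0238) in shPax6 against WT, and Otx2 (-0.0683), Rorb (0.22), Thrb (0.0815), Mef2d (0.04) and Esrrb (0.0618) in JNK3 KO against WT. In WT minus shPax6 it turned Rorb (0.69), Thrb (0.0151) and Mef2d (0.11), and in WT minus JNK3 KO Crx (0.33), Nr2e3 (-0.21), Rorb (0.85) and Mef2d (0.15).

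Quantile normalization turned Nrl (-0.81) in WT, Nr2e3 (-0.003) and Neurod1 (-0.10) in shPax6, Crx (0.0627) and Rorb (-0.005) in JNK3 KO, and Crx (-0.0655), Otx2 (-0.10) and Neurod1 (-0.10) in JNK3 KO against WT. It turned Crx (-0.41) in WT minus shPax6, and Nrl (-0.37), Nr2e3 (-0.73) and Esrrb (-0.47) in WT minus JNK3 KO.

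Counts of higher calls after NMDA in WT went from 1 to 0 as TPM, 0 by quantile and 5 by length correction, and lower calls from 7 to 4 by length correction. Lower calls in WT as TPM and by quantile are not counted here. There Crx was -0.655 as TPM and -0.98 by quantile, and Nrl 0.03 and -0.81. In shPax6 higher calls went from 3 to 1 by length correction, 0 by quantile and 0 with the spread of the groups alone, which left 2 of 4 lower calls. That spread left 4 of 7 higher calls in shPax6 against WT. In JNK3 KO against WT, 2 higher calls became 1 as TPM, by length correction and without the filter, and 0 by quantile and with the spread of the groups alone. In WT minus shPax6, 2 positive calls became 1 as TPM, 4 by length correction and 0 by quantile, and 6 negative calls became 3 by length correction. In WT minus JNK3 KO, 1 positive call became 4 by length correction, 0 by quantile, and 2 without the filter or with the spread of the groups alone, and 5 negative calls became 8 as TPM, 9 by quantile and 3 by length correction. Calls over all genes moved too, here given as TPM, by quantile and by length correction. Higher calls in WT went from 4286 to 2247, 4418 and 3918, and lower calls from 5569 to 8270, 5046 and 3643. Positive calls in WT minus JNK3 KO went from 3875 to 2105, 3617 and 3023, and negative calls from 4597 to 6973, 4285 and 2596.

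With a further limit of 1 on the absolute difference, adjusted or unadjusted p alike, 1 lower call (Thrb) and 0 higher remained in WT, 0 in either direction in shPax6 and JNK3 KO, 0 in each genotype comparison, 1 positive and 0 negative in WT minus shPax6, and 1 positive (Nrl) and 2 negative in WT minus JNK3 KO.

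Leaving out 1 library gave 0 to 1 higher calls in JNK3 KO against WT and 1 to 2 higher calls after NMDA in JNK3 KO. Signs turned within these ranges: after NMDA in shPax6, Neurod1 -0.0553 to 0.12, Nr2e3-201 -0.0133 to 0.16, Rorb-201 -0.30 to 0.27 and Thrb-202 -0.36 to 0.0653. In JNK3 KO after NMDA they were Rorb -0.0821 to 0.10, Thrb -0.19 to 0.0504 and Thrb-202 -0.0435 to 0.0773. In JNK3 KO against WT they were Otx2 -0.0009 to 0.0179, Rorb -0.14 to 0.0372 and Thrb -0.16 to 0.0819, and in WT minus JNK3 KO Crx -0.0536 to 0.0395 and Esrrb -0.0179 to 0.0375. In shPax6 against WT, Thrb lost its call without WT PBS library 2 and Esrrb without WT PBS library 1, WT PBS library 2 or shPax6 PBS library 1 (0.26, 0.22 and 0.21).

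Same-numbered libraries did not deviate together (correlations -0.10 to 0.09 over 15 pairs of groups). In pooled libraries this cannot tell whether the numbers mark shared animals or batches, which the labels do not say. With the replicate block, higher calls in JNK3 KO against WT went from 2 to 1 (Nr2e3 lost its call), Otx2 after NMDA in JNK3 KO lost its call, and the other 61 gene values kept sign and call. Depth is unknown, so no counting error can be given for Thrb, Rorb and single transcripts.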
